A study of Mus musculus with 12 samples.

Results

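Long-term and short-term hematopoietic stem cells (LT-HSCs and ST-HSCs) of mouse bone marrow were compared by bulk RNA sequencing after 2 days of culture without nicotinamide riboside (NR). The samples were chosen by their labels alone, which gave 6 of the 12 libraries of the series, 3 of each population. Flow sorting had selected lineage-negative cells that displayed Kit, Sca1 and CD150 but not CD48, and CD34 then divided them: LT-HSCs were CD34- and ST-HSCs CD34+. All 12 cultures grew in Stemline II, to which SCF at 100 ng/ml and Flt3, as the labels name it, at 2 ng/ml were added. The other 6 libraries held the same populations with 1 mM NR, a precursor of nicotinamide adenine dinucleotide, renewed at 24 h; they serve here as a further set of libraries for the same contrast. The labels used here name no strain, sex, age, number of mice or pooling, and do not say that the samples of a group came from separate animals or cultures. Any p-value below thus reflects the scatter of these samples alone, and that scatter may be technical. Surface proteins defined the populations at the sort, whereas the transcripts were measured 2 days later.

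HSCs renew themselves and produce all blood lineages. After transplantation LT-HSCs sustain blood formation lastingly, while ST-HSCs do so for a limited time, and mouse HSCs gain surface CD34 as they leave the long-term state. Stem cell programs include transcription factors such as Hlf and Mecom and surface proteins such as EPCR. Multipotent progenitors, the next step, show Flt3 and CD48 and divide more readily.

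The 6 libraries held between 28.4 M and 34.1 M counts assigned to genes, and 19830 of 53465 genes passed a filter on low counts over all 12 libraries. Levels are given as CPM, counts scaled to library size with TMM factors, which correct for differences in RNA composition between libraries. CPM is not corrected for gene length, so levels are compared between samples and not between genes. Differences are log2 of LT-HSC over ST-HSC, so a positive value means higher in LT-HSCs. Differences are given ± a standard error (SE), and adjusted p values are from edgeR. The SE was derived as the size of the log2 difference divided by the square root of the F statistic of its edgeR test. A gene was called at an adjusted p under 0.05. Reads in no annotated gene made up 10.2%, 8.69% and 16.0% of reads in LT-HSC samples 1 to 3 and 11.1%, 17.0% and 16.5% in ST-HSC samples 1 to 3. Summed olfactory receptor counts were 31.6 to 39.6 CPM in the 3 libraries with the lower shares and 119 to 136 CPM in the 3 with the higher. The first principal component of the 6 libraries (54.4% of variance) placed LT-HSC sample 3 with ST-HSC samples 2 and 3, and the second component (19%) separated the populations. In bulk RNA, fewer cells of a type and less RNA per cell cannot be told apart.

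The transcripts of 4 of the 5 genes behind the sort differed between the populations after culture. Cd34 (ENSMUSG00000016494), a sialomucin of progenitor and endothelial cells, measured 270.0, 247 and 260.5 CPM in the 3 LT-HSC libraries and 638, 606 and 639 CPM in the 3 ST-HSC libraries. All 3 ST-HSC libraries lay above all LT-HSC libraries, by 2.42-fold on average, and the LT-HSC level was far from 0. The log2 difference was -1.27 ± 0.07 (SE; edgeR adjusted p = 5.5e-07). Slamf1 (ENSMUSG00000015316), which encodes CD150, measured 38.3, 43.5 and 35.2 CPM in the 3 LT-HSC libraries and 18.9, 20.2 and 17.6 CPM in the 3 ST-HSC libraries. CD150 was positive in both gates, yet the LT-HSC libraries were all higher, by 1.05 ± 0.14 (SE; edgeR adjusted p = 0.00044). Ly6a (ENSMUSG00000075602), which encodes Sca1 and belongs to a family of similar genes, measured 36.4, 47.6 and 28.9 CPM in the 3 LT-HSC libraries and 7.38, 5.51 and 5.82 CPM in the 3 ST-HSC libraries. The lowest LT-HSC library was above every ST-HSC library, and the log2 difference was 2.59 ± 0.25 (SE; edgeR adjusted p = 3.4e-05). Cd48 (ENSMUSG00000015355), a SLAM family ligand that both gates excluded, was low throughout, with 1.01, 0.631 and 0.855 CPM in the 3 LT-HSC libraries and 5.08, 3.86 and 6.25 CPM in the 3 ST-HSC libraries. Its ST-HSC libraries were nonetheless all higher (log2 difference -2.60 ± 0.48, adjusted p = 0.0053). Kit (ENSMUSG00000005672), the SCF receptor, measured 1489, 1409 and 1440.1 CPM in the 3 LT-HSC libraries and 1344, 1359 and 1432 CPM in the 3 ST-HSC libraries. Its libraries overlapped and the difference of 0.07 ± 0.06 did not pass the test (edgeR adjusted p = 0.75).

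**Figure D1:**
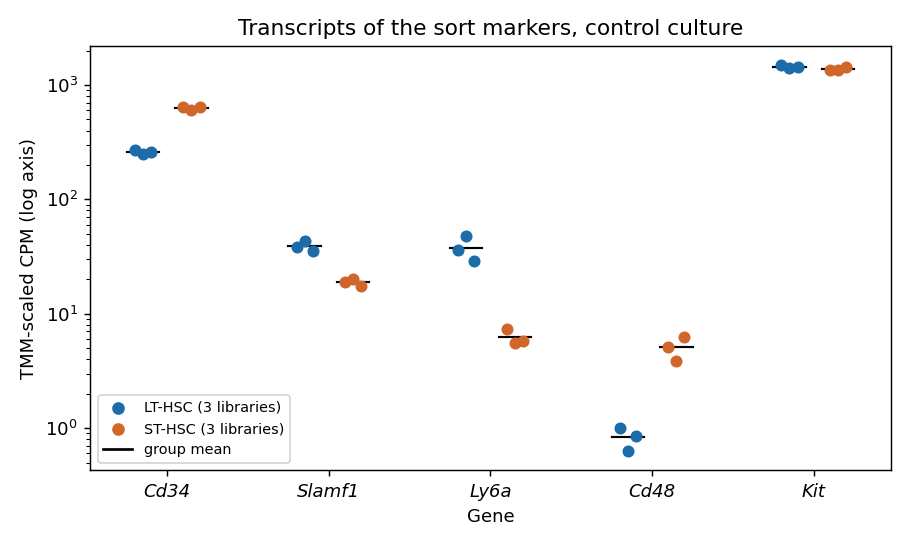
Levels of the 5 sort marker transcripts (horizontal axis) in TMM-scaled CPM on a log axis; each point is 1 control library (blue LT-HSC, orange ST-HSC) and each bar the mean of 3. Cd34 and Cd48 are lower and Slamf1 and Ly6a higher in every LT-HSC library than in any ST-HSC library, while Kit overlaps.

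The 250 bases before the start site are shown for 3 of these genes to set regulatory sequence beside their opposite changes, as RefSeq gives them on GRCm38.p6; the build behind the counts is not given in the sources used here. They lie on the plus strand at chr1:194938571-194938820, chr1:171766882-171767131 and chr1:171681742-171681991, and Ly6a is named only. Capitals mark matches, on either strand, to motifs of 3 factor families: AGATAA or TGATAA for GATA factors, CCGGAA or AGGAAG for ETS factors, and TGTGGT for RUNX. No motif overlaps another in these windows.
Cd34: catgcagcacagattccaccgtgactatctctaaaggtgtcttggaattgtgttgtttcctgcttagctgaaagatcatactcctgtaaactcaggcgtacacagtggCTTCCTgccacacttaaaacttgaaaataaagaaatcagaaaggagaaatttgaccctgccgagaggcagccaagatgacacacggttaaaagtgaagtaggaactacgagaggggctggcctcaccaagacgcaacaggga
Slamf1: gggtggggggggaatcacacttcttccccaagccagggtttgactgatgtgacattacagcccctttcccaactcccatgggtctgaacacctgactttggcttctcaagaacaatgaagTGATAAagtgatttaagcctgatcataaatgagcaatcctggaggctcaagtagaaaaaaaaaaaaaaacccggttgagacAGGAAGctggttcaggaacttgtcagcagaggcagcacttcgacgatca
Cd48: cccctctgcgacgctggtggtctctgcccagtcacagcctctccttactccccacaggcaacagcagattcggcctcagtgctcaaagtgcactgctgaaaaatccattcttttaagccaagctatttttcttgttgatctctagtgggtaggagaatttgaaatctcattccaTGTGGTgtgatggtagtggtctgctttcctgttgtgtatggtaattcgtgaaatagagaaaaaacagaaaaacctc
Cd34 held 1 ETS match, 142 to 137 bases upstream of the start. Slamf1 held 1 GATA match at 130 to 125 bases and 1 ETS match at 49 to 44 bases, and Cd48 held 1 RUNX match at 76 to 71 bases. Over all 32851 RefSeq windows of this length, 16.6% held the GATA, 38.2% the ETS and 14.0% the RUNX motif. A match describes the letters and is not a measured binding site.

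Over all genes, 994 were called (5.01% of those tested), 696 of them higher in LT-HSCs (3.51%) and 298 lower (1.50%). The higher genes moved further: their median log2 difference was 0.88 against -0.58 for the lower genes, and 302 against 75 passed a 2-fold difference. The 3 libraries of each population did not overlap in any of the 994 called genes, a pattern that 24.8% of all tested genes showed. Among the 10438 tested genes with a mean of 5 CPM or more, 533 were higher (5.11%) and 273 lower (2.62%). These shares are larger than those over all genes, which stand beside the gene lists below. Adding the share of unassigned reads to the model gave 873 higher and 554 lower genes, and 983 of the 994 kept their call. A fit of the 6 control libraries alone, with the filter applied again, called 1105 and 509. Leaving out 1 control library at a time, with the same genes tested, left 470 to 566 higher and 165 to 234 lower. The number lower was 234 without LT-HSC sample 1 and at most 193 without any other of the libraries. Each gene given with its own difference was tested again in this way. A call that was lost is given beside the gene, with the library left out and the highest adjusted p with the same genes tested. For many of these genes the filter on low counts applied again gave a higher adjusted p, which is printed only for some. A loss that came only when the filter on low counts was applied again is given as such, and members listed by symbol alone are marked where they lost the call with the same genes tested.

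**Figure D2:**
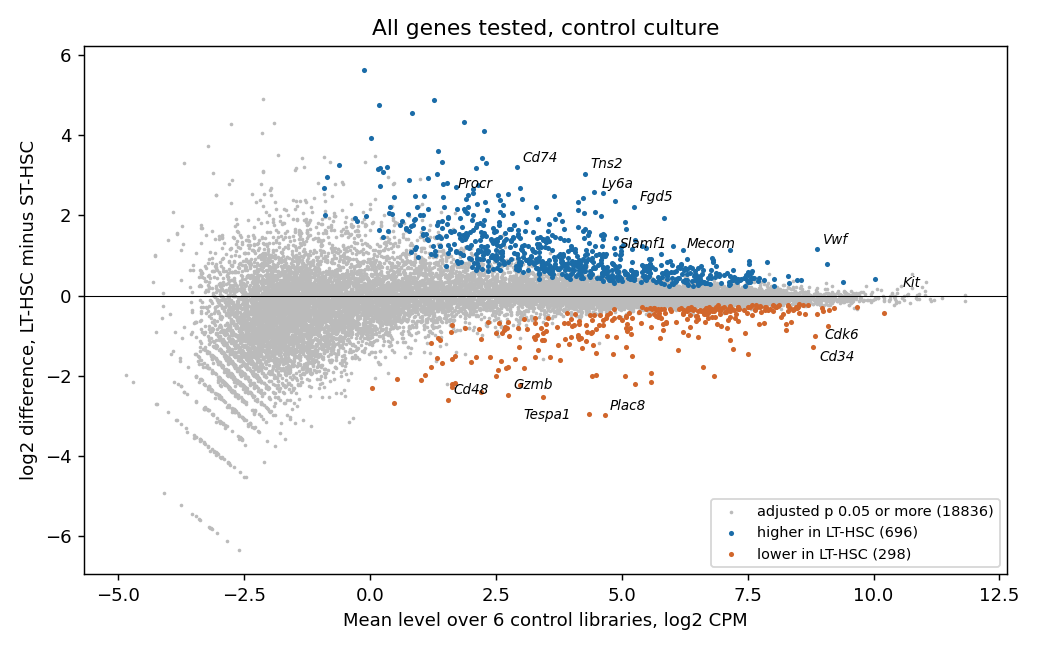
Each point is 1 of the 19830 tested genes, with its mean over the 6 control libraries (log2 CPM, horizontal) and its log2 difference of LT-HSC over ST-HSC (vertical). Blue marks the 696 genes called higher and orange the 298 called lower in LT-HSCs, and the called higher genes reach larger differences.

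The 15 largest rises in LT-HSCs among called genes with a mean of at least 5 CPM, leaving out predicted genes, ran from 2.22 to 3.20 on the log2 scale. Tns2 (ENSMUSG00000037003), a tensin of focal adhesions, measured 30.6, 34.7 and 37.5 CPM in the 3 LT-HSC libraries and 5.12, 2.93 and 4.35 CPM in the 3 ST-HSC libraries. The LT-HSC libraries were alike and all several-fold above the ST-HSC libraries, with a log2 difference of 3.04 ± 0.17 (SE; edgeR adjusted p = 6.6e-07). Tinagl1, a secreted matrix protein gene, measured 37.8, 47.6 and 41.3 CPM in LT-HSCs against 5.97, 7.40 and 8.21 CPM in ST-HSCs, a difference of 2.55 ± 0.16 (SE; edgeR adjusted p = 1.9e-06). Procr (ENSMUSG00000027611) encodes EPCR, the endothelial protein C receptor that is widely used to purify HSCs, and measured 11.2, 12 and 10.9 CPM in the 3 LT-HSC libraries and 1.41, 2.57 and 1.90 CPM in the 3 ST-HSC libraries. Each LT-HSC library exceeded 10 CPM and no ST-HSC library reached 3 CPM (log2 difference 2.54 ± 0.26, adjusted p = 7.2e-05). Fgd5, an exchange factor for Cdc42 whose locus drives an HSC reporter mouse, measured 65.2, 57.8 and 64.6 CPM in LT-HSCs against 11.5, 14.1 and 14.6 CPM in ST-HSCs, and the groups were far apart (log2 difference 2.22 ± 0.18, adjusted p = 1.2e-05).

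Igf2bp2 (ENSMUSG00000033581), an RNA-binding protein gene of the Lin28 and Hmga2 axis, measured 17, 23 and 23.9 CPM in the 3 LT-HSC libraries and 3.67, 3.76 and 3.89 CPM in the 3 ST-HSC libraries. Its 3 ST-HSC values were nearly equal, and the difference was 2.50 ± 0.13 (SE; edgeR adjusted p = 5.5e-07). Sox18, a transcription factor gene of blood and lymph vessels, was higher by 2.51 ± 0.28, Bcam, a laminin receptor gene, by 2.41 ± 0.21 and the transporter gene Abcg3 by 2.44 ± 0.19. Evc, which serves Hedgehog signalling at cilia, was higher by 2.33 ± 0.39, and Pygm, the muscle form of glycogen phosphorylase, by 2.39 ± 0.25. The adult beta-globin gene Hbb-bt measured 52.3, 52.7 and 41.1 CPM in LT-HSCs against 9.54, 10.2 and 8.58 CPM in ST-HSCs (log2 difference 2.37 ± 0.16, adjusted p = 2.6e-06). Its near-identical neighbour Hbb-bs differed by 1.27 ± 0.56 and was not called (edgeR adjusted p = 0.3, named after its value was seen). The split of reads between both copies was not tested. For these genes the edgeR adjusted p ran from 5.5e-07 (Igf2bp2) to 0.0028 (Evc), apart from Hbb-bs.

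Cd74 (ENSMUSG00000024610), the invariant chain that escorts MHC class II, had the largest of these rises, 3.20 ± 0.66 (SE; edgeR adjusted p = 0.012), and an SE larger than that of any other named rise. It measured 16.4, 18.6 and 5.95 CPM in the 3 LT-HSC libraries and 0.853, 2.97 and 0.674 CPM in the 3 ST-HSC libraries. LT-HSC sample 3 was well below the other LT-HSC samples and ST-HSC sample 2 well above the other ST-HSC samples. The adjusted p of Cd74 rose to as much as 0.068 without LT-HSC sample 2, ST-HSC sample 1 or ST-HSC sample 3. The class II alpha chain gene H2-Aa measured 10.9, 11.6 and 8.55 CPM in LT-HSCs against 1.12, 3.22 and 2.08 CPM in ST-HSCs, a difference of 2.27 ± 0.35 (SE; edgeR adjusted p = 0.0013) that kept its call without any single library. Iigp1, an interferon-inducible GTPase gene from a family of close relatives, measured 11.7, 19.5 and 9.52 CPM in LT-HSCs against 1.28, 2.25 and 2.76 CPM in ST-HSCs. LT-HSC sample 2 was the highest, and the difference was 2.69 ± 0.33 (SE; edgeR adjusted p = 0.00028).

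The 15 largest falls, which are genes higher in ST-HSCs, ran from -1.81 to -2.98 on the log2 scale. Plac8 (ENSMUSG00000029322), a small cysteine-rich protein gene of myeloid and lymphoid progenitors, measured 8.72, 4.78 and 3.46 CPM in the 3 LT-HSC libraries and 42.4, 45.1 and 47.3 CPM in the 3 ST-HSC libraries. ST-HSC libraries were close to each other and several-fold above the highest LT-HSC library, LT-HSC sample 1 (log2 difference -2.98 ± 0.24, adjusted p = 1.1e-05). Tespa1 (ENSMUSG00000034833), which takes part in antigen receptor signalling in thymocytes, measured 5.36, 3.79 and 4.85 CPM in the 3 LT-HSC libraries and 35.9, 34.4 and 37.8 CPM in the 3 ST-HSC libraries. The ST-HSC values were nearly equal, and the difference was -2.95 ± 0.21 (SE; edgeR adjusted p = 2.6e-06). Cd244a (ENSMUSG00000004709), the 2B4 receptor for CD48 and a marker of progenitors, measured 14.1, 13.3 and 13.6 CPM in the 3 LT-HSC libraries and 62.9, 64.6 and 62.1 CPM in the 3 ST-HSC libraries. Neither population spread by more than a few CPM, and the difference was -2.21 ± 0.11 (SE; edgeR adjusted p = 4e-07).

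Nkg7, a cytotoxic granule membrane protein gene, measured 22.5, 16.4 and 20.5 CPM in LT-HSCs against 76.7, 78.6 and 73.2 CPM in ST-HSCs (log2 difference -1.94 ± 0.12, adjusted p = 1.4e-06). The granzyme gene Gzmb was lower, at -2.47 ± 0.36 and Cst7, which encodes the cathepsin inhibitor cystatin F, at -1.86 ± 0.25. These 3 genes are known from killer cells and also from mast cell and myeloid progenitors. Lat2, an adaptor of immune receptors, measured 20.9, 14.4 and 17 CPM in LT-HSCs against 82.8, 77.8 and 73.7 CPM in ST-HSCs (log2 difference -2.16 ± 0.14, adjusted p = 1.7e-06). Clec4e, the lectin receptor Mincle, was lower, at -2.0 ± 0.15, Cd52, a small leukocyte surface glycoprotein gene, at -2.01 ± 0.26 and Nlrc3, a brake on innate sensing, at -2.52 ± 0.21.

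Emilin2, an elastic fibre glycoprotein gene, measured 54.1, 36.6 and 45.8 CPM in LT-HSCs against 195, 182 and 174 CPM in ST-HSCs (log2 difference -2.01 ± 0.12, adjusted p = 1.4e-06). Pdgfrb, a platelet-derived growth factor receptor best known from pericytes, measured 7.71, 10.7 and 9.02 CPM in LT-HSCs against 32.5, 31.7 and 44 CPM in ST-HSCs, and ST-HSC sample 3 was the highest. Its difference was -1.98 ± 0.19 (SE; edgeR adjusted p = 4.1e-05). Igfbp7, a secreted growth factor binding protein gene, was lower, at -2.22 ± 0.20, the actin-severing gene Scin at -2.01 ± 0.37 and the butyrophilin-like gene Btnl9 at -1.81 ± 0.22. Over the 15 falls the edgeR adjusted p ran from 4e-07 (Cd244a) to 0.0054 (Scin), and each kept its call without any single library.

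**Figure D3:**
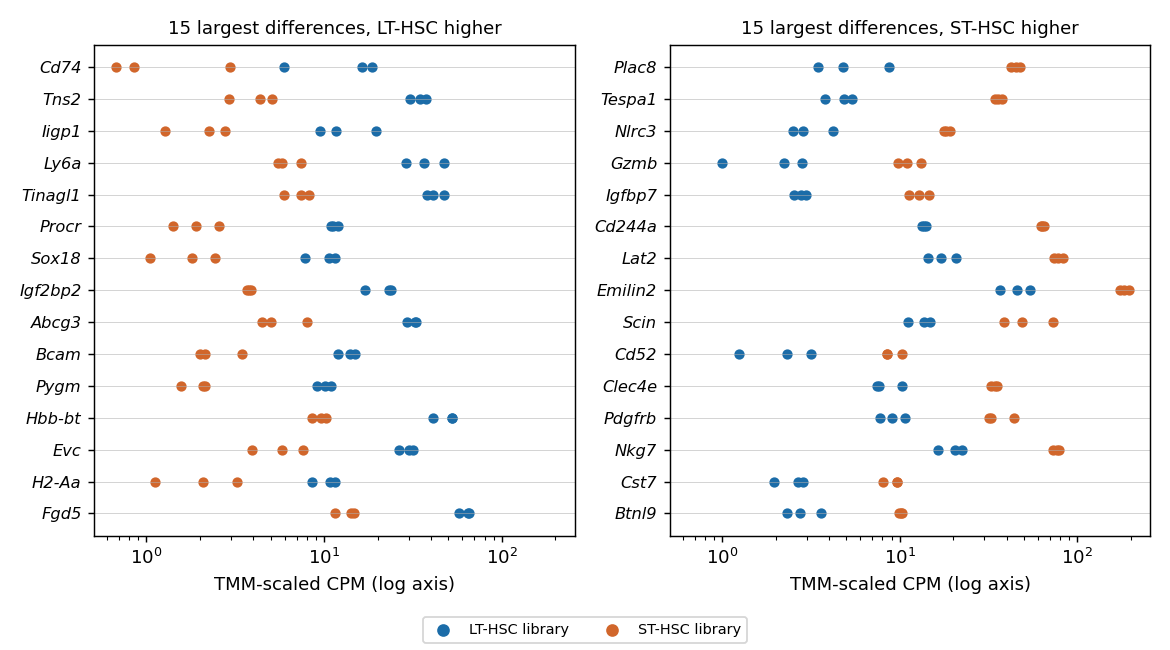
The 15 largest rises (left) and 15 largest falls (right) among called, named genes with a mean of 5 CPM or more, in TMM-scaled CPM on a log axis; each point is 1 library, blue for LT-HSC and orange for ST-HSC. The 2 colours do not overlap in any row, and the Cd74 points are far apart within each colour.

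In a list of reporter, surface and other genes associated with long-term HSCs, most members were higher in LT-HSCs. The members of this list and of those below were chosen with earlier results of these data known, so their shares are not independent of these data. Of 56 tested members, 33 were higher (58.9%, against 3.51% of all genes) and 2 lower (3.57%, against 1.50%). The median log2 difference of the list was 0.70, against -0.05 over all genes. The number higher ran from 29 to 32 when 1 library was left out. Tgm2, tissue transglutaminase, measured 85.9, 90.7 and 97.1 CPM in LT-HSCs against 40.4, 36.3 and 40.0 CPM in ST-HSCs, a steady difference of 1.23 ± 0.09 (SE; edgeR adjusted p = 2.6e-06). Sult1a1, a sulfotransferase gene, measured 6.31, 9.36 and 7.66 CPM in the 3 LT-HSC libraries and 0.951, 0.608 and 0.981 CPM in the 3 ST-HSC libraries. It was at or below 1 CPM in each ST-HSC library and above 6 CPM in each LT-HSC library (log2 difference 3.19 ± 0.26, adjusted p = 1.2e-05). Ctnnal1, a catenin-like gene whose locus drives an HSC reporter, measured 144, 150.5 and 136 CPM in LT-HSCs against 82.5, 79.6 and 77.5 CPM in ST-HSCs (log2 difference 0.85 ± 0.07, adjusted p = 1.8e-05). The other called members included Fgd5, Procr, Pde1b, Esam, Mmrn1, Jam3, Robo4, Hlf, Mecom, Fhl1, Ramp2, Tcf15, Cd82, Ltb, Neo1, Mllt3, Jam2, Eya2, Clec1a, Pdzk1ip1, Vwf, Cdkn1c, Alcam, Gda, Hoxb5, Cd81, Nupr1, Selp and Myct1. Of these, Cd81, Nupr1, Selp and Myct1 lost the call without 1 library or more.

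Members that went the other way or did not pass were also part of that list. The organic cation transporter gene Slc22a3 measured 247, 212 and 233 CPM in LT-HSCs against 376, 389.7 and 372 CPM in ST-HSCs, a lower level in every LT-HSC library (log2 difference -0.72 ± 0.07, adjusted p = 3.4e-05). Itga2b, the integrin CD41 of platelets and their precursors, was lower, at -0.45 ± 0.11 (edgeR adjusted p = 0.027), with an adjusted p of up to 0.12 without any of 5 of the 6 libraries. With the filter applied again its adjusted p was up to 0.39 without any of the 6 libraries. Members that did not pass, named after their values were seen, were Angpt1 (-0.09 ± 0.09), Apoe (0.05 ± 0.08), the angiopoietin receptor gene Tek (0.14 ± 0.11) and the efflux pump gene Abcg2 (0.23 ± 0.06). Their edgeR adjusted p values were 0.78, 0.87, 0.66 and 0.067.

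The upstream windows of Fgd5 and Procr are shown because both are LT-HSC reporter genes with large differences. They lie on the plus strand at chr6:91978715-91978964 and chr2:155750967-155751216 (RefSeq, GRCm38.p6), with the same motifs in capitals.
Fgd5: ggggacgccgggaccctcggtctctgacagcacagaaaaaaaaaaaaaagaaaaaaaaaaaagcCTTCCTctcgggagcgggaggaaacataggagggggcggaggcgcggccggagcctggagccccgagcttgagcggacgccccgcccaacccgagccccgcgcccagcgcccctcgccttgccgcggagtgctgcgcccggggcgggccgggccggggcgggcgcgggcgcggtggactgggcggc
Procr: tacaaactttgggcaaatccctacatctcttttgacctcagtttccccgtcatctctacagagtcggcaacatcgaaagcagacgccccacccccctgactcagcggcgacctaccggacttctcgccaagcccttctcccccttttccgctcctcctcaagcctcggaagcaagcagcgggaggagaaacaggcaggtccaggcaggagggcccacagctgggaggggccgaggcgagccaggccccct
Fgd5 held 1 ETS match, 186 to 181 bases upstream, and the Procr window held no match to these letters. The GC content was 71.6% and 61.6%, against 46.4% for Cd34.

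Of the transcription factors of the HSC program, several rose and most did not pass the test. Of 59 tested members of 61 listed, 15 were higher (25.4%, against 3.51% of all genes) and 2 lower (3.39%, against 1.50%), and the median was 0.20. The list shares 7 genes with that of long-term HSC genes, of which 5 were called higher and 0 lower. Ndn, an imprinted inhibitor of proliferation, measured 44.5, 55.4 and 54 CPM in the 3 LT-HSC libraries and 13.9, 16.6 and 17.9 CPM in the 3 ST-HSC libraries. All LT-HSC libraries were above all ST-HSC libraries (log2 difference 1.67 ± 0.12, adjusted p = 5.5e-06). Nkx2-3, a homeobox gene of HSCs and gut vessels, measured 28.3, 31 and 31.9 CPM in LT-HSCs against 10.8, 9.94 and 9.71 CPM in ST-HSCs (log2 difference 1.58 ± 0.12, adjusted p = 5.9e-06). Hlf, a leucine zipper factor that marks HSCs, measured 224, 224 and 249.7 CPM in LT-HSCs against 139.5, 126 and 138 CPM in ST-HSCs (log2 difference 0.79 ± 0.09, adjusted p = 0.0001). Mecom, which encodes Evi1 and is needed for HSC maintenance, measured 156, 139 and 142 CPM in LT-HSCs against 81.3, 74.6 and 73.9 CPM in ST-HSCs (log2 difference 0.93 ± 0.10, adjusted p = 0.00013). The other 11 were Tcf15, Prdm16, Eya2, Nr4a1, Hoxb5, Hoxa10, Id1, Egr1, Id2, Lyl1 and Klf12. Of these, Id1, Id2, Egr1, Lyl1 and Klf12 lost the call without 1 library or more. The number called higher was 10 to 14 without 1 library and 8 to 18 with the filter applied again, with the lowest count of both ranges without LT-HSC sample 2. The other fits gave 17 to 22.

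Many core factors lay near 0 instead, and these examples were named after their values were seen. Gata2 differed by -0.01 ± 0.07, Runx1 by 0.02 ± 0.07, Meis1 by 0.04 ± 0.06, Gfi1b by 0.03 ± 0.08 and Fli1 by 0.11 ± 0.07, with edgeR adjusted p of at least 0.54. Lmo2 differed by 0.23 ± 0.07 (adjusted p = 0.075). Cebpa, the master factor of granulocyte fate, was low and measured 1.43, 0.963 and 0.748 CPM in the 3 LT-HSC libraries and 6.76, 5.11 and 3.59 CPM in the 3 ST-HSC libraries. Every ST-HSC library was above every LT-HSC library (log2 difference -2.29 ± 0.30, adjusted p = 0.00044). Sox6, a repressor with a role in red cell maturation, was also lower (log2 difference -0.81 ± 0.15, adjusted p = 0.0066), at an adjusted p of up to 0.063 without LT-HSC sample 3 or ST-HSC sample 2 with the filter applied again.

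Progenitor-associated genes gave more lower than higher calls. Of 45 tested members of 47 listed, 15 were lower in LT-HSCs (33.3%, against 1.50% of all genes) and 3 higher (6.67%, against 3.51%). The median was -0.36. Leaving out 1 library gave 14 to 15 lower. The list shares Cd34 and Cd48 with the sort markers, and CD34 defined the populations. Flt3, a receptor tyrosine kinase that marks multipotent progenitors, measured 12, 12.8 and 13.6 CPM in the 3 LT-HSC libraries and 28.1, 25.9 and 36.9 CPM in the 3 ST-HSC libraries. ST-HSC sample 3 was the highest, and all ST-HSC libraries exceeded all LT-HSC libraries (log2 difference -1.25 ± 0.20, adjusted p = 0.0018). Cdk6, a kinase that speeds the exit of HSCs from quiescence, measured 339, 277 and 303 CPM in LT-HSCs against 656, 585 and 597 CPM in ST-HSCs (log2 difference -1.0 ± 0.11, adjusted p = 0.0001).

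The granulocyte colony-stimulating factor receptor gene Csf3r measured 33.3, 35.6 and 37.2 CPM in LT-HSCs against 64.6, 50.5 and 67 CPM in ST-HSCs (log2 difference -0.78 ± 0.10, adjusted p = 0.00039), and Ms4a3, a gene of granulocyte and monocyte precursors, 3.20, 2.89 and 2.92 CPM in LT-HSCs against 10.7, 10.7 and 9.53 CPM in ST-HSCs (log2 difference -1.78 ± 0.27, adjusted p = 0.0013). Besides these and Plac8, Tespa1, Nkg7, Cd52 and Cebpa, the lower members included Cd37, Igfbp4 and Cd27, of which Cd27 had an adjusted p of 0.052 without LT-HSC sample 3. Those called higher in LT-HSCs were Lsp1, an actin-binding leukocyte gene (0.51 ± 0.08), Mn1, a cofactor gene of myeloid leukaemia (0.79 ± 0.15), and Gcnt2 (0.23 ± 0.06), whose adjusted p was up to 0.2 without any of the 6 libraries. With the filter applied again, that of Gcnt2 was up to 0.57. The adjusted p of Lsp1 was up to 0.082 without LT-HSC sample 1, LT-HSC sample 2 or ST-HSC sample 2 with the filter applied again. Granule enzymes of neutrophil precursors, named after their values were seen, did not pass: Mpo differed by -0.26 ± 0.85 and Elane by 1.02 ± 0.99, with edgeR adjusted p of 0.94 and 0.77 and spreads that allow several-fold differences either way.

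Of 37 tested megakaryocyte and platelet genes 6 were higher (16.2%, against 3.51% of all genes) and 6 lower (16.2%, against 1.50%), with a median of 0.02. The number lower moved with the setting: it was 10 with DESeq2, 11 with limma-voom or in a fit of the 6 control libraries, and 3 to 5 without 1 library, or 2 with the filter applied again. The number higher was 6 with DESeq2, limma-voom and the 6 control libraries, and 4 to 5 without 1 library, or 3 to 5 with the filter applied again. Of the higher members Vwf, Mmrn1 and Selp, among others, are also on the list of long-term HSC genes. Vwf, which encodes von Willebrand factor and marks platelet-biased HSCs, measured 677, 685 and 589 CPM in the 3 LT-HSC libraries and 303, 303 and 270.5 CPM in the 3 ST-HSC libraries. LT-HSC sample 3 was the lowest of its group and still well above every ST-HSC library (log2 difference 1.15 ± 0.17, adjusted p = 0.00093). Mmrn1, a multimerin stored in platelet granules, measured 675, 707 and 662 CPM in LT-HSCs against 377, 416 and 391 CPM in ST-HSCs (log2 difference 0.79 ± 0.08, adjusted p = 6e-05), and Cavin2, a caveola coat gene, 235, 247 and 226 CPM in LT-HSCs against 131, 134 and 127 CPM in ST-HSCs (log2 difference 0.85 ± 0.08, adjusted p = 4.6e-05).

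The lower members included the lineage factor Gata1, which drives red cell and megakaryocyte genes and measured 57, 52.1 and 51.4 CPM in the 3 LT-HSC libraries and 117, 107 and 95.4 CPM in the 3 ST-HSC libraries. Its LT-HSC libraries were close together and all below the ST-HSC libraries (log2 difference -0.99 ± 0.12, adjusted p = 0.0002). Plek, the platelet kinase substrate pleckstrin, measured 420.2, 422 and 371 CPM in LT-HSCs against 679.7, 720.0 and 662 CPM in ST-HSCs (log2 difference -0.77 ± 0.09, adjusted p = 0.00016), and the thrombin receptor gene F2r 357, 322 and 328 CPM in LT-HSCs against 470.2, 478 and 438 CPM in ST-HSCs (log2 difference -0.46 ± 0.09, adjusted p = 0.0059). With the filter applied again, the adjusted p of F2r was up to 0.25 without any of the 6 libraries. The platelet glycoprotein gene Gp5 was lower, at -0.56 ± 0.11 (adjusted p = 0.011, and up to 0.056 without LT-HSC sample 1, LT-HSC sample 3 or ST-HSC sample 1). With the filter applied again its adjusted p was up to 0.2 without any of the 6 libraries. Pf4, a platelet chemokine gene that did not pass, differed by 0.08 ± 0.14 and was named after its value was seen. The summed level of the list overlapped between the populations, with 9450 to 10300 CPM in LT-HSCs and 9300 to 9990 CPM in ST-HSCs.

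Among cytokine and growth factor receptors, 10 of 51 tested members were higher (19.6%, against 3.51% of all genes). The 2 lower members (3.92%, against 1.50%) were Csf3r and Flt3, while the median was 0.00. Eng, the endoglin co-receptor of the TGF-beta family, measured 218, 225 and 210.2 CPM in LT-HSCs against 159, 139 and 136 CPM in ST-HSCs (log2 difference 0.59 ± 0.07, adjusted p = 0.00029). The fibroblast growth factor receptor genes Fgfr3 and Fgfr1 were higher by 1.27 ± 0.19 and 0.99 ± 0.17, and the interleukin 11 receptor gene Il11ra1 by 0.49 ± 0.08. With the filter applied again, the adjusted p of Il11ra1 was 0.069 without LT-HSC sample 1. Fgfr1 measured 15.7, 19.1 and 22.2 CPM in the 3 LT-HSC libraries and 7.94, 9.19 and 11.6 CPM in the 3 ST-HSC libraries, so the highest ST-HSC library stayed under the lowest LT-HSC library. The edgeR adjusted p of these 4 genes ran from 0.00029 to 0.0028. The other higher members included Tgfbr3, Ifngr2, Il27ra, Tnfrsf1a and Tnfrsf1b. Of these, Ifngr2, Il27ra, Tnfrsf1a and Tnfrsf1b lost the call without 1 library or more. Leaving out 1 library gave 6 to 9 higher, or 5 to 10 with the filter applied again.

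Adhesion genes changed in both directions. Of 45 tested members, 12 were higher (26.7%, against 3.51% of all genes) and 7 lower (15.6%, against 1.50%), with a median of 0.06. The list shares 13 genes with that of long-term HSC genes, of which 10 were called higher and 1 lower. Esam, a junction protein gene of endothelium and HSCs, measured 145, 148 and 147 CPM in the 3 LT-HSC libraries and 89.5, 89.2 and 86.2 CPM in the 3 ST-HSC libraries, with little spread in either population (log2 difference 0.73 ± 0.07, adjusted p = 3.4e-05). Jam3 was higher by 1.66 ± 0.18, the guidance receptor gene Robo4 by 1.14 ± 0.12 and the tetraspanin gene Cd82, linked to HSC quiescence, by 1.51 ± 0.18. Itgal, the alpha chain of the leukocyte integrin LFA-1, measured 13.6, 11.1 and 11.6 CPM in the 3 LT-HSC libraries and 33.4, 29.6 and 35 CPM in the 3 ST-HSC libraries, and each ST-HSC library was well above the LT-HSC libraries (log2 difference -1.43 ± 0.14, adjusted p = 3.4e-05). Its partner Itgb2 was lower, at -0.70 ± 0.10 and Itgb7, a chain of gut-homing integrins, at -1.03 ± 0.11. The broadly expressed chains Itgb1 (-0.06 ± 0.07), Itga6 (0.09 ± 0.13) and Itga5 (0.07 ± 0.07), named after their values were seen, did not pass (edgeR adjusted p of at least 0.79).

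Interferon response genes were called higher in 11 of 52 tested members (21.2%, against 3.51% of all genes) and lower in 1 (1.92%, against 1.50%). The median was 0.32, and the number higher depended on single libraries. It was 3 to 7 when 1 library was left out, 2 to 8 with the filter applied again, 18 with DESeq2 and 22 in a fit of the 6 control libraries. Besides Iigp1, the nucleic acid sensor gene Zbp1 measured 2.35, 2.42 and 2.21 CPM in LT-HSCs against 0.361, 0.823 and 0.858 CPM in ST-HSCs (log2 difference 1.77 ± 0.32, adjusted p = 0.005). Irf1, a transcription factor gene of the response, measured 48.9, 59.4 and 46.5 CPM in the 3 LT-HSC libraries and 36.7, 36.9 and 37 CPM in the 3 ST-HSC libraries, with LT-HSC sample 2 the highest (log2 difference 0.48 ± 0.09, adjusted p = 0.0066). With the filter applied again, the adjusted p of Irf1 was up to 0.15 without LT-HSC sample 1, LT-HSC sample 2, ST-HSC sample 2 or ST-HSC sample 3. Irgm2, a GTPase gene with close relatives, was higher by 0.77 ± 0.15 (adjusted p = 0.0096, up to 0.056 without LT-HSC sample 2). The peptide transporter gene Tap1 was lower, at -0.28 ± 0.06 (edgeR adjusted p = 0.016), a call lost at up to 0.078 without LT-HSC sample 2, LT-HSC sample 3, ST-HSC sample 1 or ST-HSC sample 3. With the filter applied again its adjusted p was up to 0.63 without any of the 6 libraries.

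In the MHC and antigen presentation list 4 of 31 tested members were higher (12.9%, against 3.51% of all genes) and 4 lower (12.9%, against 1.50%). Both counts moved with the setting. The number higher was 8 with DESeq2, limma-voom or upper-quartile factors, 10 in a fit of the 6 control libraries and 2 to 4 without 1 library, or 1 to 4 with the filter applied again. The number lower was 5, 5 and 5 in the first 3 of these fits, 4 in the fit of the control libraries and 2 to 3 without 1 library, or 1 with the filter applied again. The higher members were Cd74, H2-Aa, H2-Eb1 (1.83 ± 0.39) and the nonclassical class I gene H2-T22 (0.55 ± 0.09), whose reads can be shared with close relatives. H2-Eb1 had an edgeR adjusted p of 0.015 and of up to 0.08 without LT-HSC sample 1, LT-HSC sample 2, ST-HSC sample 1 or ST-HSC sample 3. H2-Ab1, the class II beta chain that pairs with H2-Aa, did not pass the test, with a difference of -0.05 ± 0.08 (adjusted p = 0.88; named after its value was seen). The lower members were H2-Ob, which restrains class II loading (-1.03 ± 0.17), Tap2 (-0.29 ± 0.06), Tap1 and H2-DMa (-0.32 ± 0.08). H2-DMa had an adjusted p of 0.026, and of up to 0.13 without any of the 6 libraries, or 0.6 with the filter applied again. With the filter applied again the adjusted p of Tap2 was up to 0.48 without any of the 6 libraries, and that of H2-T22 was 0.067 without LT-HSC sample 2.

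Of 29 tested NF-kB and inflammatory genes 4 were higher (13.8%, against 3.51% of all genes) and 0 lower, with a median of 0.34. By unadjusted p under 0.05, by DESeq2 and by limma-voom the number lower was 1, 0 and 1. Traf1, a signal adaptor and target of the pathway, measured 12.1, 17.2 and 13.6 CPM in the 3 LT-HSC libraries and 4.36, 4.54 and 5.24 CPM in the 3 ST-HSC libraries. All LT-HSC libraries were more than 2-fold above the ST-HSC libraries (log2 difference 1.60 ± 0.14, adjusted p = 2.3e-05). Ltb, which encodes lymphotoxin beta, measured 32.2, 57 and 39.5 CPM in LT-HSCs against 17.9, 15.6 and 14.4 CPM in ST-HSCs (log2 difference 1.43 ± 0.18, adjusted p = 0.00029). Ccl4, a chemokine gene, was higher by 1.05 ± 0.21 (edgeR adjusted p = 0.0086), and the inhibitor gene Nfkbia by 0.68 ± 0.15 (adjusted p = 0.018, up to 0.079 without ST-HSC sample 1, ST-HSC sample 2 or ST-HSC sample 3). LT-HSC sample 2 was the highest library for Ltb, Nfkbia, Irf1, Iigp1 and Cd74.

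Immediate early and ERK feedback genes were higher in 6 of 32 tested members (18.8%, against 3.51% of all genes). The number lower was 1 (3.12%, against 1.50%), and the median was 0.21. The ERK phosphatase gene Dusp4 measured 55.6, 56.5 and 59.9 CPM in LT-HSCs against 33.1, 36.7 and 32.9 CPM in ST-HSCs (log2 difference 0.74 ± 0.08, adjusted p = 9e-05), and Nr4a1, an orphan receptor linked to HSC quiescence, 13.5, 16.3 and 16.1 CPM in LT-HSCs against 9.51, 8.98 and 10.1 CPM in ST-HSCs (log2 difference 0.68 ± 0.10, adjusted p = 0.0011). Egr1, a serum-responsive factor of quiescent HSCs, measured 21.9, 36.3 and 35.5 CPM in the 3 LT-HSC libraries and 10.8, 14.4 and 14.2 CPM in the 3 ST-HSC libraries. LT-HSC sample 1 was the lowest of its group and above all ST-HSC libraries (log2 difference 1.25 ± 0.27, adjusted p = 0.014), and the adjusted p was up to 0.079 without LT-HSC sample 2, LT-HSC sample 3 or ST-HSC sample 1. Leaving out 1 library gave 2 to 4 higher and 0 lower members.

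Few genes of the cell cycle machinery were called. None of 53 tested G2 phase and mitosis genes was called in either direction by edgeR, but most lay slightly below 0. Their median was -0.09, against -0.05 over all genes, and 42 of 53 were negative, against 11456 of all 19830 genes. All ST-HSC libraries lay above all LT-HSC libraries in 26 members (49.1%, against 12.4% of all genes) and the reverse held in 0. Their summed level was 10100 to 10500 CPM in LT-HSCs and 10900 to 11300 CPM in ST-HSCs. With NR, 6 members were called higher (11.3%, against 3.80% of all genes) and 0 lower, and the median was 0.32. By unadjusted p under 0.05, 3 were lower and 0 higher, and DESeq2 and limma-voom each called 2 lower and 0 higher. Mki67, the proliferation antigen gene, differed by -0.04 ± 0.13 and Ccnb2, a mitotic cyclin gene, by 0.00 ± 0.15 (edgeR adjusted p = 0.95 and 1), both named after their values were seen. Of 58 tested G1/S and replication genes 1 was higher (1.72%, against 3.51% of all genes) and 3 lower (5.17%, against 1.50%), with a median of -0.02. The higher gene was Ccnd1, the D-type cyclin, with 106, 106 and 100.4 CPM in LT-HSCs against 65, 64.8 and 64.5 CPM in ST-HSCs (log2 difference 0.69 ± 0.07, adjusted p = 4.3e-05). Its kinase partner Cdk6 was lower, as described above. The replication factor gene Rfc2 and the E2F repressor gene E2f8 were lower, at -0.37 ± 0.07 and -0.39 ± 0.09, with adjusted p of up to 0.056 without LT-HSC sample 3 for Rfc2 and 0.11 without any of the 6 libraries for E2f8. With the filter applied again both lost the call without any of the 6 libraries, at adjusted p of up to 0.41 for Rfc2 and 0.44 for E2f8.

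Inhibitors of the cell cycle and quiescence genes were higher in 6 of 37 tested members (16.2%, against 3.51% of all genes). The 1 lower member was Cdk6 (2.7%, against 1.50%). The median was 0.11. Cdkn1c (ENSMUSG00000037664), which encodes p57 and is needed for HSC quiescence, measured 26.9, 30.2 and 26.9 CPM in the 3 LT-HSC libraries and 15.8, 15.5 and 12.5 CPM in the 3 ST-HSC libraries. The lowest LT-HSC library was clearly above the highest ST-HSC library (log2 difference 0.94 ± 0.14, adjusted p = 0.0011). Cdkn1a (ENSMUSG00000023067), which encodes p21, measured 30.0, 30.9 and 30.5 CPM in the 3 LT-HSC libraries and 19.8, 21 and 20.8 CPM in the 3 ST-HSC libraries. The replicates were tight and the populations about 10 CPM apart (log2 difference 0.57 ± 0.11, adjusted p = 0.0068). With the filter on low counts applied again, its adjusted p was up to 0.087 without LT-HSC sample 1 or LT-HSC sample 2. The other higher members were Ndn, Nr4a1, Hes1 and Egr1, of which Hes1 had an adjusted p of 0.07 without LT-HSC sample 2. Cdkn2c, a further inhibitor gene, differed by -0.30 ± 0.12 and did not pass (adjusted p = 0.23; named after its value was seen).

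Imprinted growth control genes, many of which restrain growth, were higher in 8 of 28 tested members (28.6%, against 3.51% of all genes) and lower in 0. The median was 0.19. The number lower was 1 by unadjusted p under 0.05, 0 by DESeq2 and 0 by limma-voom. Besides Ndn and Cdkn1c they were Igf2r, Dlk1, Slc22a18, Plagl1, Grb10 and Snrpn. The last 4 each lost the call without 4 or 5 of the 6 libraries, with adjusted p of up to 0.061, 0.091, 0.15 and 0.13. Igf2r, which clears insulin-like growth factor 2 and overlaps the antisense transcript Airn, measured 18.5, 24.2 and 19.9 CPM in the 3 LT-HSC libraries and 8.10, 5.76 and 9.96 CPM in the 3 ST-HSC libraries. All LT-HSC libraries were well above all ST-HSC libraries (log2 difference 1.39 ± 0.21, adjusted p = 0.0011). Dlk1, a Notch-family ligand gene, was low in ST-HSCs, with 5.27, 9.13 and 8.73 CPM in LT-HSCs against 1.41, 0.644 and 1.35 CPM in ST-HSCs (log2 difference 2.75 ± 0.49, adjusted p = 0.0043). Meg3 and Peg3 differed by 1.81 ± 1.07 and 1.19 ± 0.62 and did not pass (edgeR adjusted p = 0.52 and 0.43; named after their values were seen). Leaving out 1 library gave 4 to 6 higher members.

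**Figure D4:**
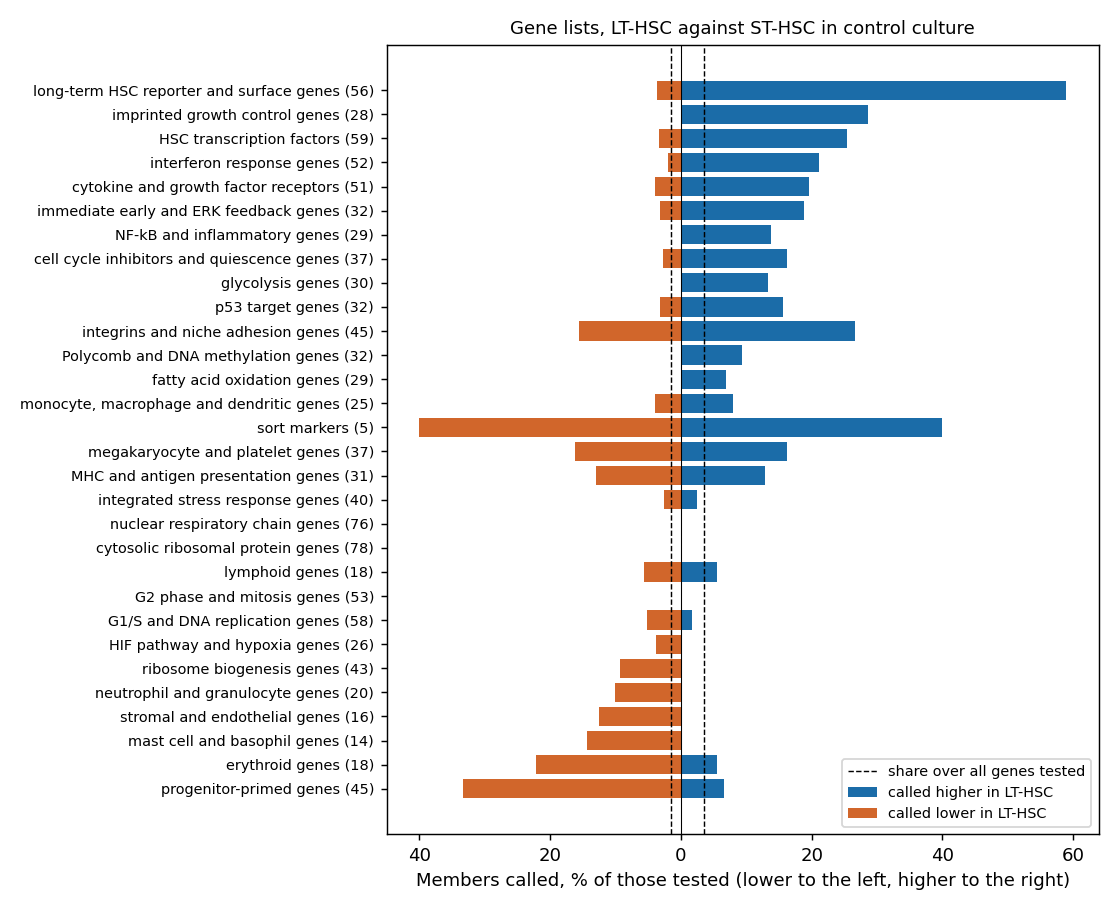
Share of tested members of each gene list called higher (blue, to the right) and lower (orange, to the left) in LT-HSCs, in percent; the number tested is in parentheses and the dashed lines mark the shares over all genes, 3.51% and 1.50%. The long-term HSC list reaches 58.9% higher and the progenitor list 33.3% lower, and 3 lists have no called member.

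Of markers of mature cells that a bone marrow sort could carry, those of lymphoid cells were mostly low and those of other cells mixed. Of 30 lymphoid markers, 23 were under 1 CPM in all 6 libraries, as were 10 of 20 stromal and endothelial, 9 of 23 erythroid, 7 of 26 monocyte, macrophage and dendritic, 5 of 17 mast cell and 3 of 22 neutrophil markers, and no marker was at 0 in all 6. Summed lymphoid markers reached 87.3 to 99.4 CPM in LT-HSCs and 137 to 142 CPM in ST-HSCs, where Nkg7 alone accounts for 73.2 to 78.6 CPM of the ST-HSC sum. Summed stromal markers were 138 to 142 against 167 to 170 CPM, and of these Pdgfrb and Pecam1 were called lower. The adjusted p of Pecam1 was up to 0.061 without LT-HSC sample 3, ST-HSC sample 1 or ST-HSC sample 2, and up to 0.46 without any of the 6 libraries with the filter applied again. Summed monocyte, macrophage and dendritic markers were 720 to 811 CPM in LT-HSCs and 655 to 681 CPM in ST-HSCs, and erythroid markers 2490 to 2730 against 2280 to 2320 CPM. Neutrophil sums overlapped at 832 to 917 against 854 to 914 CPM, as did mast cell sums at 2070 to 2160 against 2030 to 2120 CPM. Among erythroid genes Klf1, the red cell master factor, was lower with Gata1, at -0.93 ± 0.20 (edgeR adjusted p = 0.015, up to 0.075 without LT-HSC sample 1, LT-HSC sample 2 or ST-HSC sample 2). Fcer1g, an immune receptor signalling chain, was lower, at -0.53 ± 0.09 (adjusted p up to 0.13 without any of 5 of the 6 libraries with the filter applied again) and Gata3, a factor of T cells and HSCs, higher by 0.67 ± 0.10. The part of other cell types in the gene differences was not tested.

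The 6 NR libraries gave the same contrast in other samples of both populations. The 12-library fit shares its filter and its estimate of the spread between both contrasts. In the 12-library fit it called 1204 genes (6.07%), of which 753 were higher (3.80%) and 451 lower (2.27%) in LT-HSCs. When the control and NR libraries were fitted apart, 1105 (6.60% of 16730 tested) and 509 (3.04%) genes were called in control and 489 (2.89%) and 279 (1.65%) with NR. Of the 1102 control-higher genes tested with NR, 1022 (92.7%) had the same sign and 401 (36.4%) were also called higher, and 2 were called lower. Of the 506 control-lower genes tested, 446 (88.1%) had the same sign, 169 (33.4%) were also called lower and 1 was called higher. Over all 15928 genes tested in both fits, 64.4% had the same sign. The log2 differences of both fits correlated across genes with r = 0.559, or 0.770 over 10473 genes of 5 CPM or more; genes share libraries and are not independent replicates.

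Of 123 called genes that the naming rule gave, 113 had the same sign with NR in the 12-library fit and 95 of these were also called. With the NR libraries fitted alone, 113 had the same sign and 83 were called. The other 10 had the opposite sign: Cdkn1a and Phlda3, called in the opposite direction, and Irf1 (-0.09 ± 0.09), Ccl4 (-0.16 ± 0.19), Gcnt2, Ddit4l, E2f8, Psat1, Sptb and Ak1, which did not pass with NR. Cd48 kept its sign with NR (-1.63 ± 0.47) and did not pass (adjusted p = 0.062). With NR, Tns2 differed by 2.65 ± 0.16, Igf2bp2 by 2.93 ± 0.13, Cd244a by -2.22 ± 0.11 and Plac8 by -2.88 ± 0.25. Cd34 differed by -1.54 ± 0.07 and Slamf1 by 1.29 ± 0.14. The value was closer to 0 with NR for Procr (1.17 ± 0.23), Tinagl1 (1.25 ± 0.15), Sult1a1 (1.63 ± 0.24) and Iigp1 (1.37 ± 0.30), and farther from 0 for Vwf (2.31 ± 0.18), Flt3 (-2.27 ± 0.20) and Tespa1 (-4.22 ± 0.23). The test of a change in the contrast did not pass for these 7 genes, with edgeR adjusted p of at least 0.14. Over all genes that test called 2 of 19830 (0.0101%), Cdkn1a and Phlda3. Cdkn1a went from 0.57 ± 0.11 in control to -0.71 ± 0.10 with NR, where it measured 77.5, 98 and 72.1 CPM in LT-HSCs and 149, 128 and 128 CPM in ST-HSCs. Phlda3, a p53 target that restrains Akt, went from 0.92 ± 0.16 to -0.66 ± 0.14. In both genes LT-HSCs were higher in control culture and ST-HSCs were higher with NR, in every library.

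**Figure D5:**
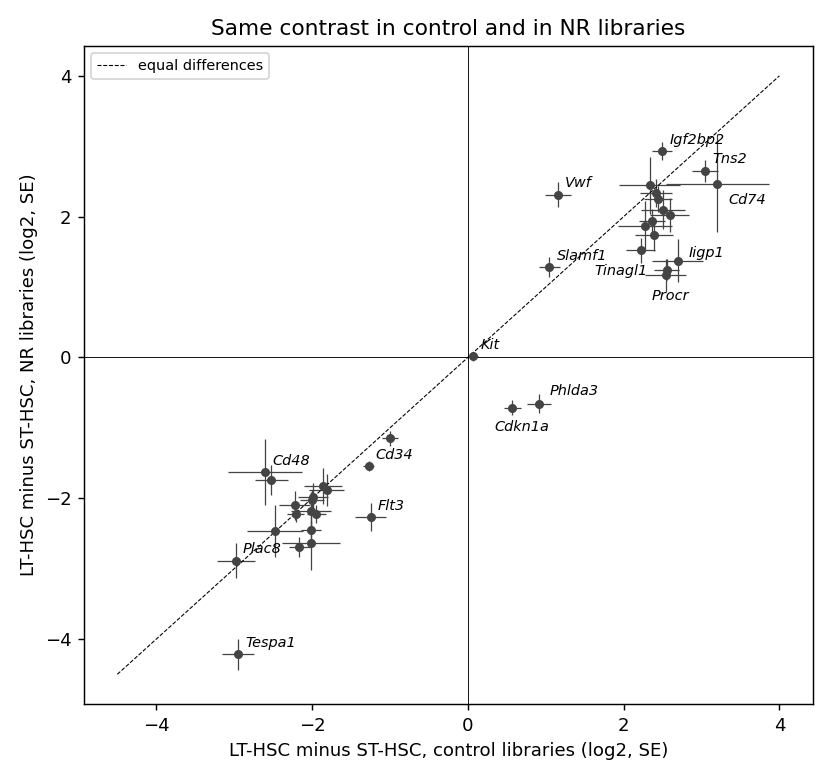
Log2 difference of LT-HSC over ST-HSC in the control libraries (horizontal) and in the NR libraries (vertical) for 39 named genes, with bars of 1 SE; the dashed line marks equal differences. Most genes have the same sign on both axes, while Cdkn1a and Phlda3 lie on opposite sides of 0.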

How the data were processed

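Total RNA of cultured cells was amplified from 2.5 ng with SMART-seq v4, which does not keep strand, and made into Nextera XT libraries, per the labels' protocols. The deposited values are whole-number read counts per Ensembl gene, 1 column per library, made by the authors with FastQC 0.11.2, STAR 2.5.0b and HTSeq 0.6.1, per the submitters' processing notes. The sources used here do not give the genome build, annotation or strand setting, so reads of a gene and an antisense partner cannot be told apart. Rows for reads in no gene (8.69% to 17.0% of reads in the 6 control libraries) or in ambiguous genes (3.79% to 4.27%) stayed out of library sizes and tests.

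Groups came from the labels. The test was the edgeR 4.0.16 quasi-likelihood F test (two-sided, R 4.3.3) with TMM factors on all 12 libraries with 4 group means and with Benjamini-Hochberg adjustment over the 19830 genes that filterByExpr kept (by group, with minimum counts of 10 per library and 15 in total). The common dispersion corresponded to a biological coefficient of variation of 0.402, on 8 residual degrees of freedom. No 2 control libraries of a group were duplicates: their counts differed with a chi-square per degree of freedom of 6.30 to 15.5. Counts were scaled to CPM by TMM-adjusted library size; intervals and errors cover the spread between libraries and not PCR duplication. The fit was tested on simulated data for this contrast.

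The 30 gene lists, their members and the comparison were chosen with earlier results of these data known, and lists are described by counts and medians without a set test. Genes were named by a rule: called, a mean of at least 5 CPM, control libraries that do not overlap and no predicted genes, the 15 largest rises and falls. It adds the sort markers and up to 4 called members per list and direction. Called members are also listed by symbol, and other genes are marked as named after their values were seen. A few genes that the rule names are not reported here. Alternatives were other scaling factors, DESeq2 1.42.0, limma-voom (limma 3.58.1), other filters, the 6 control libraries alone, the sample number as a block, the unassigned share as a covariate, and each library left out. Promoter windows came from RefSeq tables of GRCm38.p6.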

Additional observations from a re-analysis of the deposited data

Results flagged for a closer look

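The LT-HSC minus ST-HSC difference of Cdkn1a and Phlda3 changed between control culture and NR by a direct test of the interaction, which no other of the 19830 genes passed. For Cdkn1a the difference in control minus that with NR was 1.28 (edgeR adjusted p = 0.023): LT-HSCs were higher in control, 0.57 ± 0.11, and lower with NR, -0.71 ± 0.10. Its NR libraries measured 77.5, 98 and 72.1 CPM in LT-HSCs and 149, 128 and 128 CPM in ST-HSCs. For Phlda3 the change was 1.57 (edgeR adjusted p = 0.048), from 0.92 ± 0.16 in control to -0.66 ± 0.14 with NR. It measured 9.97, 12.9 and 12 CPM in LT-HSCs against 6.03, 6.87 and 5.55 CPM in ST-HSCs in control, and 38.5, 43.8 and 36.6 CPM in LT-HSCs and 76.2, 58.1 and 52.9 CPM in ST-HSCs with NR. In both genes the 3 LT-HSC libraries lay above the 3 ST-HSC libraries in control and below them with NR. Both are induced by p53 in many cell types.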

How the results depend on the processing

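Of 124 named genes none changed sign in any setting, and 123 (relative log expression or upper-quartile factors), 124 (DESeq2, limma-voom, replicate block, unassigned share as covariate, or 6 control libraries) or 114 (no filter) kept their side of the threshold. The numbers of higher and lower genes were 1093 and 537 with DESeq2 and 1134 and 722 with limma-voom. The 6 control libraries alone gave 1105 and 509 with the filter applied again and 1120 and 405 with the same genes tested. The unassigned share as a covariate gave 873 and 554, and a minimum mean of 5 CPM, which tests fewer genes, 832 and 505. Of the 994 calls DESeq2 kept 993 and the covariate fit 983. With 1 control library left out, 406 to 643 genes were higher and 108 to 137 lower with the filter applied again; with the tested genes kept, the numbers were 470 to 566 and 165 to 234. The cause was not tested, although each such fit has fewer samples. Of 123 called named genes, 97 kept their call in all 6 fits with the same genes tested and 87 with the filter applied again. In the 6 control libraries residuals of same-numbered LT-HSC and ST-HSC libraries correlated at -0.0096, 0.0311 and 0.113, and LT-HSC samples 1 and 2 correlated best with another number. Pairing by number was not tested in the NR libraries. Their reads in no annotated gene made up 9.41%, 11.3% and 28.5% in LT-HSC samples 1 to 3 and 9.17%, 13% and 26.2% in ST-HSC samples 1 to 3. With the sample number as a replicate block, 890 genes were higher and 436 lower. Over the other fits of all libraries or the 6 control libraries, the number lower among G1/S and replication genes ran from 3 to 6 and the number higher among NF-kB and inflammatory genes from 4 to 8.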

Other observations

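Housekeeping and metabolic lists held few called genes, and in some of them most members lay slightly to one side of 0. None of 76 tested nuclear genes of the respiratory chain was called by edgeR, and their median log2 difference was 0.01. By unadjusted p under 0.05, 1 was lower and 0 higher, and DESeq2 and limma-voom called 0. None of 78 cytosolic ribosomal protein genes was called either, with a median of -0.08, against -0.05 over all genes. Only 2 of the 78 were above 0, against 8374 of all 19830 genes. All ST-HSC libraries lay above all LT-HSC libraries in 24 (30.8%, against 12.4% of all genes), and the reverse held in 0. Here 1 was lower and 0 higher by unadjusted p, 0 were called by DESeq2 and 1 lower by limma-voom. Of 43 ribosome biogenesis genes 39 were negative, against 11456 of all 19830 genes. The ST-HSC libraries were all higher in 19 (44.2%, against 12.4% of all genes) and the LT-HSC libraries in 1 (2.33%, against 12.4%). In this list 0 genes were called higher and 4 were called lower (9.30%, against 1.50% of all genes). They were the nucleolar genes Gnl3 (-0.28 ± 0.05), Ddx21 (-0.28 ± 0.06), Wdr43 (-0.27 ± 0.06) and Nolc1 (-0.23 ± 0.06), all small differences, and their number was 2 to 3 without 1 library, 0 without a filter or with the filter applied again without 1 library, and 4 to 9 in the other fits. With the same genes tested, the highest edgeR adjusted p of Ddx21 was 0.056 without LT-HSC sample 1 or ST-HSC sample 2. That of Wdr43 was 0.076 without LT-HSC sample 2, LT-HSC sample 3 or ST-HSC sample 3. Nolc1 reached 0.18 without any of the 6 libraries, and Gnl3 kept its call. With the filter applied again all 4 lost the call without any of the 6 libraries. The adjusted p was then up to 0.44 for Gnl3, 0.49 for Ddx21, 0.64 for Wdr43 and 0.79 for Nolc1.

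Of 30 glycolysis genes 4 were higher in LT-HSCs (13.3%, against 3.51% of all genes) and 0 lower, with a median of 0.06. Eno2, the neuronal enolase gene, measured 5.21, 6.14 and 6.56 CPM in LT-HSCs against 1.12, 1.25 and 1.78 CPM in ST-HSCs (log2 difference 2.10 ± 0.22, adjusted p = 8.9e-05). Ldhb, the lactate dehydrogenase chain of oxidative tissues, measured 74.1, 81.7 and 74.9 CPM in LT-HSCs against 42.3, 40.5 and 46.9 CPM in ST-HSCs (log2 difference 0.83 ± 0.09, adjusted p = 0.0001), and Pdk4, a brake on pyruvate oxidation, 2.26, 2.13 and 1.43 CPM in LT-HSCs against 0.492, 0.501 and 0.889 CPM in ST-HSCs (log2 difference 1.62 ± 0.30, adjusted p = 0.0062). The enzymes Gapdh (-0.01 ± 0.07), Ldha (0.05 ± 0.07) and Pkm (0.15 ± 0.08), named after their values were seen, did not pass. Of 29 fatty acid oxidation genes 2 were higher (6.9%, against 3.51% of all genes) and 0 lower. Cpt1c was among those higher (log2 difference 1.08 ± 0.13, edgeR adjusted p = 0.00023). Of 26 HIF pathway genes 1 was lower (3.85%, against 1.50% of all genes) and 0 higher. It was Ndrg1, a stress and hypoxia gene, which measured 159, 169 and 152 CPM in LT-HSCs against 269, 251 and 267 CPM in ST-HSCs. Its log2 difference was -0.71 ± 0.07 (edgeR adjusted p = 3.1e-05). Among 32 genes of a list of Polycomb, DNA methylation and Lin28 axis genes, 3 were higher (9.38%, against 3.51% of all genes) and 0 lower. The higher members were Igf2bp2 of the Lin28 axis, given above among the largest rises, and Cbx6 (0.52 ± 0.07) and Cbx7 (0.71 ± 0.12). Both of the latter are chromobox readers of Polycomb complexes. Ezh2 (-0.26 ± 0.07) and Dnmt3b (-0.25 ± 0.07) did not pass (adjusted p = 0.061 and 0.059; named after their values were seen). Of 40 integrated stress response genes 31 were negative, against 11456 of all 19830 genes. The ST-HSC libraries were all higher in 20 (50.0%, against 12.4% of all genes) and the LT-HSC libraries in 4. Few were called: 1 was higher (2.5%, against 3.51% of all genes) and 1 lower (2.5%, against 1.50%). The higher member was the chromatin protein gene Nupr1 (log2 difference 0.78 ± 0.17, edgeR adjusted p = 0.016). Its adjusted p was up to 0.088 without LT-HSC sample 2, LT-HSC sample 3, ST-HSC sample 1 or ST-HSC sample 3. The lower member was Psat1 of serine synthesis (log2 difference -0.25 ± 0.06, edgeR adjusted p = 0.035). Its adjusted p was up to 0.15 without any of 5 of the 6 libraries. The number lower was 5 with DESeq2, 7 with limma-voom, 6 in a fit of the 6 control libraries and 0 without a filter. With the filter applied again, the edgeR adjusted p of Psat1 was up to 0.73 without any of the 6 libraries.

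Of 32 p53 target genes 5 were higher in LT-HSCs in control culture (15.6%, against 3.51% of all genes) and 1 lower (3.12%, against 1.50%). Ddit4l, an mTOR inhibitor gene, measured 2.10, 2.59 and 3.03 CPM in LT-HSCs against 1.08, 0.715 and 0.735 CPM in ST-HSCs (log2 difference 1.60 ± 0.23, adjusted p = 0.00095), and the kinase gene Plk2 3.93, 4.48 and 6.74 CPM in LT-HSCs against 1.44, 2.11 and 1.65 CPM in ST-HSCs (log2 difference 1.54 ± 0.22, adjusted p = 0.00097). Gadd45a, a growth arrest gene, was the lower member, with 6.43, 5.74 and 6.41 CPM in LT-HSCs against 15.7, 12.3 and 11.5 CPM in ST-HSCs (log2 difference -1.09 ± 0.14, adjusted p = 0.00039). In the NR libraries 0 members of the same list were higher and 14 lower (43.8%, against 2.27% of all genes), with a median of -0.39.

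Some low-count genes, named after their values were seen, had larger differences in control culture than any gene of the report. Gbp8, an interferon-induced GTPase gene with close relatives, measured 6.10, 7.90 and 6.99 CPM in LT-HSCs against 0.262, 0.429 and 0.337 CPM in ST-HSCs (log2 difference 4.34 ± 0.26, adjusted p = 1.1e-06). Sfrp1, a secreted Wnt antagonist gene, measured 7.16, 9.66 and 10.3 CPM in LT-HSCs against 0.361, 0.679 and 0.521 CPM in ST-HSCs (log2 difference 4.12 ± 0.28, adjusted p = 2.5e-06). Of the 696 genes called higher and 298 called lower, 163 and 25 had a mean under 5 CPM.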
